A study of Rattus norvegicus with 12 samples.

Results

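Hnf4a, Foxa1, Foxa2, Foxa3, Cebpa, Cebpb, Onecut1, Prox1 and Nr5a2 encode transcription factors that define the adult hepatocyte. Each of the 9 genes was taken as the probe set to which the platform annotation gives exactly that symbol, with the brightest kept if several did. Each had 1 such probe set, and none shared a probe set with another gene, so 9 of the 13215 named genes were followed. Their RNA was measured in the livers of 12 Sprague Dawley rats, each on its own Affymetrix whole-transcript array. Control rats (n = 4) ate a diet with no drug, another group (n = 4) ate naproxen at 400 mg/kg of diet, and the last (n = 4) ate NO-naproxen at 550 mg/kg of diet, all for 7 days. Naproxen is a nonsteroidal anti-inflammatory drug that inhibits cyclooxygenases, and NO-naproxen is its derivative that carries a nitric oxide-donating group. Their age was not given in the sources used here.

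Hepatocyte identity rests on a small circuit of factors that bind each other's genes as well as the genes of secreted proteins and metabolism. HNF4A is a nuclear receptor at its centre. The FOXA proteins are pioneer factors that open chromatin, the C/EBP proteins are leucine zipper factors of energy metabolism and the acute phase, and ONECUT1 is a cut-homeodomain factor. NR5A2 is a nuclear receptor of bile acid and cholesterol genes, and PROX1 is a homeodomain protein that acts largely as a corepressor, on HNF4A and NR5A2 among others.

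None of the 9 genes differed between diets by the test. With naproxen against control, 0 of 9 passed an adjusted p under 0.05 in limma (Benjamini-Hochberg over 19418 probe sets), as did 0.0% of all probe sets. At an unadjusted p under 0.05, 0 of 9 passed against 12.7% of all probe sets. The criterion in the series' design text, an unadjusted p under 0.05 and at least a 1.5-fold change, was met by 0 of 9 against 5.85% of all. With NO-naproxen against control the members' counts were again 0, 0 and 0, against 0.0%, 10.4% and 3.8% of all probe sets. Between NO-naproxen and naproxen they were 0, 0 and 0 against 0.0%, 1.92% (1.28% higher and 0.644% lower with NO-naproxen) and 0.572%.

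The data bound how large a difference could have been missed. In each of the 3 comparisons all 9 of the 95% intervals lay inside a 2-fold difference in either direction. With naproxen against control the widest bounds were -0.70 for Onecut1 and 0.80 for Foxa2 on the log2 scale, that is 1.63-fold lower and 1.74-fold higher. With NO-naproxen they were -0.62 for Foxa2 and 0.69 for Onecut1. Intervals inside a 1.5-fold difference were reached by 4 genes with naproxen and 6 with NO-naproxen against control. Differences are of log2(intensity + 16), and the number of arrays limits their precision. Standard errors ran from 0.16 for Cebpa to 0.30 for Onecut1.

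**Figure D1:**
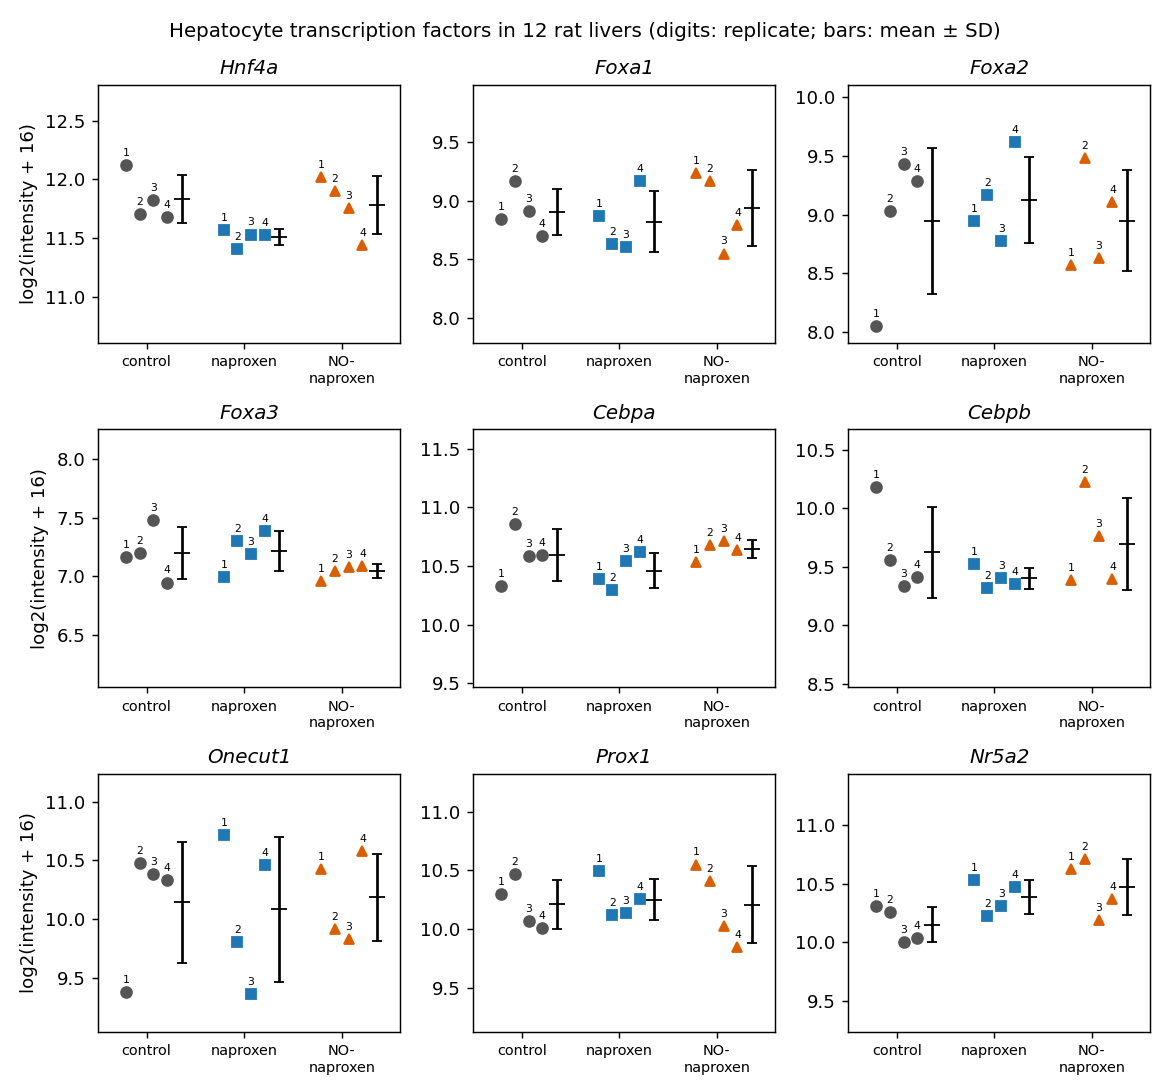
Log2(intensity + 16) of each of the 9 genes (y axis, 2.2 log2 units in every panel) in the 3 diet groups (x axis), 1 point per array with its replicate digit, and the group mean ± SD (n = 4) as black bars. The 4 naproxen arrays lie below all controls for Hnf4a, and in the other 8 panels naproxen and control points overlap.

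Array-wide facts bear on these values. Median intensity per array lay between 89.8 and 118, and the interquartile range of an array, its spread, averaged 2.10 ± 0.19 log2 units for control arrays, 2.34 ± 0.16 for naproxen and 2.36 ± 0.23 for NO-naproxen (SD, n = 4). All 9 genes measured above 70.6 intensity units, the 95th percentile of 970 probe sets of olfactory and vomeronasal receptors, on each of the 12 arrays. Among defining hepatocyte markers, 14 of 14 measured (of 18 listed) were above that bound, and of 7 measured bile duct markers 3 were. Control replicate 1 had the highest Hnf4a, Cebpb and Nr5a2 and the lowest Foxa2, Onecut1 and Cebpa of its group. Over all 12 arrays it held 2 extremes of the 9 genes, against 3 for naproxen replicate 2. Fold changes of Hnf4a, Cebpb, Foxa2, Onecut1 and Cebpa are given with and without it. For Nr5a2 the range on leaving out each array in turn is given. In bulk liver, fewer hepatocytes and less RNA per hepatocyte cannot be told apart.

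Hnf4a (Entrez Gene 25735) came closest to a difference with naproxen. Its probe set read 4436, 3327, 3615 and 3264 intensity units in control replicates 1 to 4. In naproxen replicates 1 to 4 it read 3013, 2699, 2942 and 2930.3, and in NO-naproxen replicates 1 to 4 it read 4142, 3808, 3434 and 2771. All 4 naproxen arrays were thus below all 4 controls, as was the case for 1 of the 9 genes and 2.4% of all probe sets. The opposite separation was found for 0 of 9 and 2.09%, and either one for 4.5%. The NO-naproxen arrays of Hnf4a spanned both groups, and for NO-naproxen against control 0 of 9 genes were separated, against 3.35% of all probe sets (1.35% lower and 2.0% higher). The log2 fold change with naproxen was -0.33 ± 0.17 (SE), a level 1.25-fold lower than in controls, with a 95% interval of -0.68 to 0.03 (unadjusted p = 0.0704, adjusted p = 0.415 in limma). With NO-naproxen it was -0.05 ± 0.17 (adjusted p = 0.888). The direct difference of NO-naproxen minus naproxen was 0.27, with an interval of -0.08 to 0.63. Without control replicate 1 the naproxen value was -0.23 and the NO-naproxen value 0.04. With naproxen the value was, after median centring, -0.21 and with array spread as a covariate -0.39. The median over all probe sets moved from -0.03 to 0.08 on median centring, and this setting shifts every probe set by the same amount.

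Rat Hnf4a has 2 annotated starts. The upstream one corresponds to the P2 promoter and the downstream one to P1, the promoter used by adult liver. The gene has 1 probe set here, so these arrays give 1 value for transcripts of both. The 250 bases before each start are shown because motifs of other circuit factors lie in them (RefSeq, build GRCr8, both on the plus strand). The upstream start follows chr3:172605970-172606219 and the downstream one chr3:172641586-172641835. Capitals mark matches, on either strand, to ATCAAT, a core of the ONECUT motif, or to GTTAAT, a half-site of the HNF1 motif.
Hnf4a upstream start: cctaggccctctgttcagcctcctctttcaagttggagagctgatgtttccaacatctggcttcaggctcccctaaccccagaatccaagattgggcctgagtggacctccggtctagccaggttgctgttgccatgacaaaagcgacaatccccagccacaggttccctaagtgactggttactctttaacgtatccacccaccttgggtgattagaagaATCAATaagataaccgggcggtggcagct
Hnf4a downstream start: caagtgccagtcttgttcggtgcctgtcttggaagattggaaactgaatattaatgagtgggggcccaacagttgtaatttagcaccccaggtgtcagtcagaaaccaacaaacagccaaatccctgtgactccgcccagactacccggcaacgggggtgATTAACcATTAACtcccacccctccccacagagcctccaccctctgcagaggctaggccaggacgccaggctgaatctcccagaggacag

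The upstream sequence holds 1 ONECUT match, from 29 to 24 bases before the start. The downstream one holds 2 HNF1 half-sites on the minus strand, from 90 to 85 and from 83 to 78 bases before the start. Of 33469 promoter windows of the same length, 7.1% hold ATCAAT and 6.45% hold GTTAAT on either strand. The FOXA motif was searched as TGTTTAC, which 3.21% of all windows hold. The C/EBP motif was searched as TTNNGCAA (held by 9.22% of windows), the HNF4 motif as AAAGTCC (3.99%), the NR5A motif as AAGGTCA (3.99%) and the TATA box as TATAAA (12.9%), none of which was found before either start of Hnf4a. The matches describe letters and were not tested for binding.

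The 3 FOXA genes, whose products share a forkhead DNA-binding domain, each had overlapping diet groups. Foxa2 (Entrez Gene 25099) had the widest range of the 9, 1.57 log2 units over 12 arrays. It read 249, 506, 674 and 607 in control replicates 1 to 4, 478, 558, 421 and 770.4 with naproxen and 364, 701, 379 and 534 with NO-naproxen. Control replicate 1 was the lowest of all 12 arrays, and each drug group overlapped the controls. The log2 fold changes were 0.18 ± 0.29 with naproxen and -0.0008 ± 0.29 with NO-naproxen (SE, adjusted p = 0.791 and 0.999). Without control replicate 1 they were -0.12 and -0.30. Foxa1 (Entrez Gene 25098) read 443, 560.2, 467 and 400.0 in control replicates 1 to 4, 453, 381, 374 and 559 with naproxen and 589, 559, 359 and 428 with NO-naproxen, each set overlapping the others. Its log2 fold changes were -0.09 ± 0.20 and 0.03 ± 0.20. Foxa3 (Entrez Gene 25100), a regulator of glucose metabolism in fasting, read 127, 131, 163 and 107 in control replicates 1 to 4, 111, 142, 130.1 and 151 with naproxen and 109, 116, 119.5 and 120.4 with NO-naproxen. The NO-naproxen arrays lay close together inside the control range. Its log2 fold changes were 0.02 ± 0.16 and -0.15 ± 0.16 (adjusted p = 0.961 and 0.648).

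The promoter window of Foxa2 (chr3:155927509-155927758, minus strand, RefSeq build GRCr8) is shown because it holds an ONECUT match and Onecut1 was the other gene of wide range. Capitals mark the ONECUT match ATCAAT, here on the minus strand, and 2 overlapping matches to TATAAA, on opposite strands.
Foxa2: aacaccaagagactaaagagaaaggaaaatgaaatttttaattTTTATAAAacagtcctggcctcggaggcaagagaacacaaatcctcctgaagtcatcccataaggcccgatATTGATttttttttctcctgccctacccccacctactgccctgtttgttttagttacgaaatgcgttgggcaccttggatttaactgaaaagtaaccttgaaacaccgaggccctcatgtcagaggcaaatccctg

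The ONECUT match lies 136 to 131 bases before the start of Foxa2, and the TATAAA matches lie 207 to 200 bases before it. TATAAA was also found in the windows of Foxa3, Cebpa and Cebpb, beginning 82, 35 and 33 bases before their starts. Promoter entries matched 6 of the 9 genes, with no entry for Foxa1, Onecut1 and Prox1. In the window of Nr5a2 none of the 7 motifs was found.

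Onecut1 (Entrez Gene 25231), a factor of bile duct and liver development that is also active in adult hepatocytes, varied most within groups, with a pooled SD of 0.51 log2 units. It read 648, 1411, 1322 and 1273 in control replicates 1 to 4. With naproxen it read 1667, 880.0, 639.6 and 1392, and with NO-naproxen 1357, 947, 893 and 1513. Low and high arrays occurred in each diet, and the groups overlapped. The log2 fold change with naproxen was -0.06 ± 0.30 (adjusted p = 0.942) and with NO-naproxen 0.04 ± 0.30 (adjusted p = 0.952). Without control replicate 1 they were -0.31 and -0.21. Without the 2 arrays of narrowest spread the naproxen value was 0.16, and after quantile normalization the NO-naproxen value was -0.13, so neither direction held.

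The genes of the 2 C/EBP factors differed in spread. Cebpa (Entrez Gene 24252), which maintains gluconeogenic and urea cycle genes, had with Foxa3 the lowest pooled SD of the 9, 0.16 log2 units. It read 1269, 1846, 1524 and 1533 in control replicates 1 to 4, 1326, 1239, 1472 and 1562 with naproxen and 1469, 1624, 1662 and 1579.8 with NO-naproxen. The groups overlapped. Its log2 fold changes were -0.13 ± 0.16 with naproxen and 0.05 ± 0.16 with NO-naproxen (adjusted p = 0.71 and 0.893). Without control replicate 1, the lowest control, they were -0.22 and -0.04. The NO-naproxen value was -0.09 after quantile normalization, so its direction did not hold.

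Cebpb (Entrez Gene 24253) is induced by cytokines, hormones and fasting, and its single mRNA yields activating and inhibitory proteins that an array does not separate. It read 1144, 739, 629 and 666 in control replicates 1 to 4, 720.4, 622, 660.5 and 638 with naproxen and 653, 1181, 852 and 659 with NO-naproxen. The high arrays were control replicate 1 and NO-naproxen replicate 2. Its SD was 0.38 for control arrays, 0.09 with naproxen and 0.40 with NO-naproxen, a difference in spread that was not tested. The log2 fold changes were -0.22 ± 0.22 and 0.07 ± 0.22 (adjusted p = 0.647 and 0.882). Without control replicate 1 they were -0.04 and 0.26, and after quantile normalization the NO-naproxen value was -0.11.

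Nr5a2 (Entrez Gene 60349) had the largest value of the 9 with NO-naproxen against control. It read 1251, 1207, 1011 and 1036 in control replicates 1 to 4, 1466, 1183, 1252 and 1407 with naproxen and 1564, 1659, 1152 and 1305 with NO-naproxen. Most drug-diet arrays were above the controls, but 1 array of each drug group lay inside the control range. The log2 fold change was 0.32 ± 0.17 with NO-naproxen (95% interval -0.03 to 0.67, unadjusted p = 0.071, adjusted p = 0.468) and 0.23 ± 0.17 with naproxen (adjusted p = 0.527). On leaving out each array in turn it lay between 0.24 and 0.42 with NO-naproxen and between 0.19 and 0.29 with naproxen.

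The level of Nr5a2 followed the spread of the arrays. Over the 12 arrays Pearson's r with the interquartile range was 0.85 (permutation p = 0.00059, adjusted p = 0.00531 over 9 genes) and Spearman's rho was 0.85 (permutation p = 0.00083, adjusted p = 0.00747). On leaving out the 2 arrays of most extreme spread r was 0.73, and on deviations from group means it was 0.78. With the spread as a covariate, the log2 fold changes of Nr5a2 were 0.13 with NO-naproxen and 0.06 with naproxen. Control replicates 3 and 4 had the narrowest spread, and without them the values were 0.19 and 0.11. They also had the lowest Nr5a2 of the controls. Mean spread differed by diet (2.10 for control, 2.34 for naproxen and 2.36 for NO-naproxen), so the covariate can take up part of a difference by diet. Diet and spread cannot be told apart here.

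Prox1 (Entrez Gene 305066) read 1244, 1398, 1060.3 and 1014 in control replicates 1 to 4, 1424, 1096, 1106 and 1209.9 with naproxen and 1483, 1343, 1025 and 903 with NO-naproxen. The groups overlapped, with log2 fold changes of 0.04 ± 0.19 and -0.0048 ± 0.19 (adjusted p = 0.937 and 0.992). Its correlation with array spread was 0.62 and Spearman's rho 0.69 (permutation p = 0.0324 and 0.0156, adjusted p = 0.146 and 0.0701), and r was 0.54 on leaving out the 2 extreme arrays. With the spread as a covariate its values were -0.18 and -0.25. The other 7 genes had r between -0.35 and 0.45 with the spread, with no adjusted p under 0.05. The spread is computed from all probe sets, and of these 4.30% had an r at least as high as that of Nr5a2 and 18.5% one at least as high as that of Prox1. Counting r of either sign, as the 2-sided tests do, the shares were 10.8% and 43.0%. Neither relation is thus particular to its gene.

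**Figure D2:**
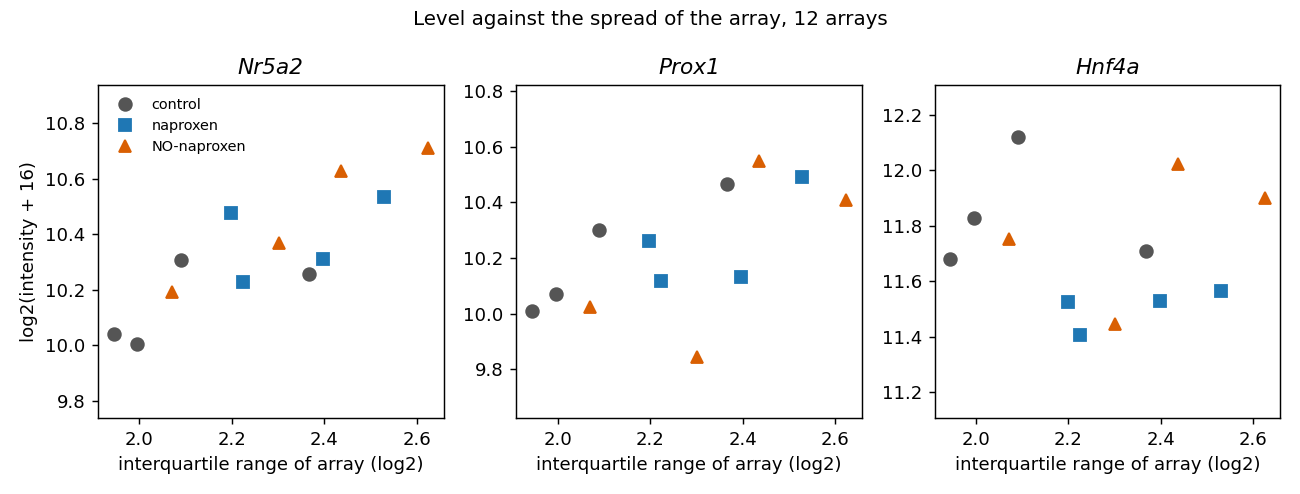
Log2(intensity + 16) of Nr5a2, Prox1 and Hnf4a (y axis, 1.2 log2 units in each panel) against the interquartile range of all probe sets on the same array (x axis, log2 units), 1 point per array and 1 symbol per diet. Nr5a2 climbs with the spread (r = 0.85 over 12 arrays), Prox1 less clearly (r = 0.62), and for Hnf4a no such slope is seen (r = -0.05).

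**Figure D3:**
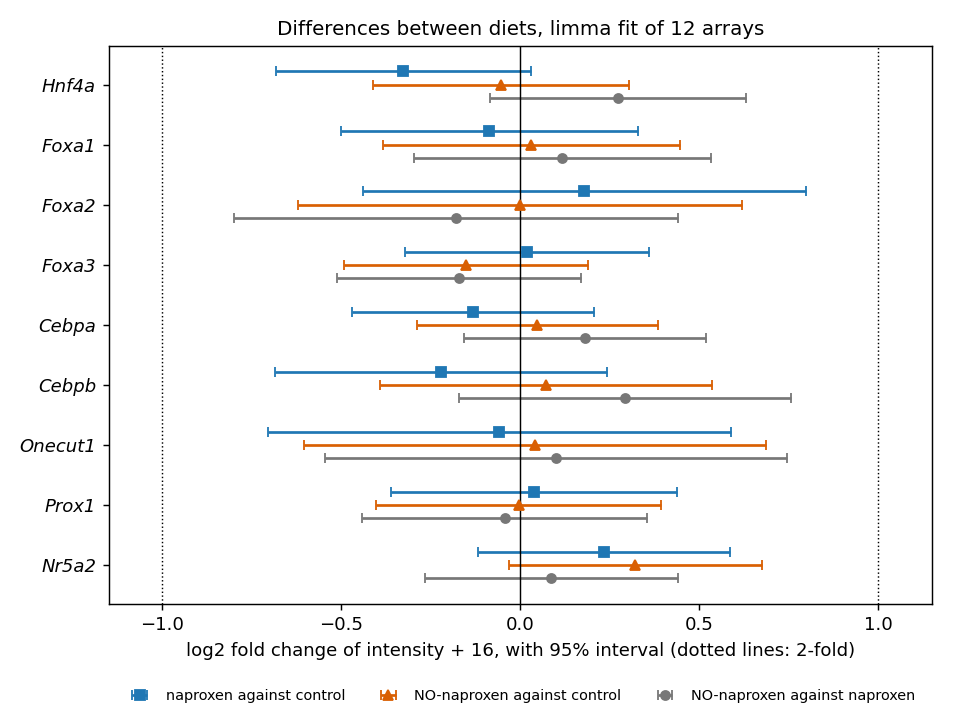
Log2 fold change of intensity + 16 with its 95% interval from the limma fit of 12 arrays (x axis) for the 9 genes (y axis), in 3 comparisons told apart by symbol, with dotted lines at a 2-fold difference. Every interval crosses 0 and none reaches a dotted line; the interval of Hnf4a with naproxen ends at 0.03 and that of Nr5a2 with NO-naproxen begins at -0.03.

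Taken by direction, the 9 genes were split in each comparison. With naproxen 4 log2 fold changes were above 0 and 5 below, with a median of -0.06 beside -0.03 over all probe sets. With NO-naproxen 5 were above 0 and 4 below, with a median of 0.03 beside 0.0004. Both comparisons use the same control arrays. Between the drugs, whose doses by weight differ, NO-naproxen minus naproxen was above 0 for 6 genes and below 0 for 3, with a median of 0.10 beside 0.06. The smallest unadjusted p was 0.124, for Hnf4a, and the widest bounds were -0.80 for Foxa2 and 0.76 for Cebpb, so these arrays leave differences of up to 1.74-fold within the intervals.

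Pairs of the 9 genes were compared over the 12 arrays, and 0 of 36 correlations passed adjustment. Foxa1 and Prox1 had the highest, with r = 0.71 and rho = 0.69 (permutation p = 0.0124 and 0.0181, adjusted p = 0.319 and 0.534 over 36 pairs), r = 0.55 on leaving out the 2 arrays of most extreme Foxa1 and 0.75 on deviations from group means. Prox1 and Nr5a2 followed with r = 0.64 and rho = 0.64 (permutation p = 0.0251 and 0.0297, adjusted p = 0.319 and 0.534), and r was 0.74 without 2 arrays. These 2 genes were also those with the highest correlation with array spread. Hnf4a and Cebpb had r = 0.63 and rho = 0.53 (permutation p = 0.0266 and 0.0798, adjusted p = 0.319 and 0.718), with r = 0.67 without 2 arrays. Foxa1 and Nr5a2 had r = 0.59 and rho = 0.48 (permutation p = 0.0443 and 0.114, adjusted p = 0.399 and 0.756), with r = 0.61 without 2 arrays. The lowest was r = -0.49, for Hnf4a and Foxa2 (permutation p = 0.104, adjusted p = 0.569), and without the 2 arrays of most extreme Hnf4a it was 0.18. Foxa2 and Onecut1 had r = 0.49 and rho = 0.24 (permutation p = 0.107 and 0.445, adjusted p = 0.569 and 0.781). Leaving out the 2 arrays of most extreme Foxa2 gave r = 0.14, so the relation rests on those arrays.

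The genes whose levels were most like each member's were sought among 9832 genes above the olfactory bound, by Pearson's r over the 12 arrays as a description. For Hnf4a these were Tat, the tyrosine aminotransferase (r = 0.87), and Gfod1 (r = 0.83). Foxa1 was closest to Itfg2 (r = 0.95) and Xpnpep1 (0.94), and Foxa2 to the MAP kinase phosphatase Dusp6 (0.94) and the mevalonate pathway kinase Pmvk (0.93). For Foxa3 they were Srpx (0.83) and Isg20 (0.79), for Cebpa Hes6 (0.83) and Jup (0.79), and for Onecut1 Cd274 (0.83) and Eepd1 (0.83). Cebpb was closest to Zfp354a (0.90) and to Klf15 (0.89), a zinc finger factor of amino acid catabolism. Prox1 was closest to Kpna5 (0.96) and Aggf1 (0.95), and Nr5a2 to Arhgef1 (0.98) and Gdap2 (0.97). These correlations all run over the same 12 arrays, whose spread differs, and the highest of many is high by selection.

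Other factors and cofactors of the circuit were measured for 27 of 36 listed genes. With naproxen 0 passed the adjusted threshold, 2 had an unadjusted p under 0.05 on the higher side (background 3.16%) and 0 on the lower side (9.5%), and the median log2 fold change was 0.03. With NO-naproxen the counts were 0, 4 and 0 (background 5.49% and 4.86%), with a median of 0.22 and 22 of 27 values above 0. Over all probe sets the median with NO-naproxen was 0.0004, and 0.07 without the dimmest 30%. All 27 genes measured above the olfactory bound, and the list was not tested as a set. Ppargc1a, a coactivator of HNF4A in gluconeogenesis, had log2 fold changes of 1.09 ± 0.30 with naproxen and 0.99 ± 0.30 with NO-naproxen (SE, adjusted p = 0.381 and 0.468). Its log2 level was 9.11 ± 0.32 and 9.02 ± 0.46 with the drugs against 8.02 ± 0.65 in controls (SD, n = 4). All 4 arrays of each drug were above all controls, as for 2.09% of all probe sets with naproxen and 2.0% with NO-naproxen. Of the 27 genes, 2 with naproxen and 1 with NO-naproxen were separated from the controls. Ppargc1a had the smallest unadjusted p of the list, and both comparisons use the same controls. Nr1i3, the receptor CAR, had values of 0.86 ± 0.27 and 0.67 ± 0.27. The fatty acid receptor Ppara had 0.44 ± 0.25 and 0.67 ± 0.25, and Rxra, partner of many nuclear receptors, 0.22 ± 0.19 and 0.39 ± 0.19.

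Textbook targets were listed for HNF4A, FOXA, C/EBP, NR5A2 and ONECUT1. These lists, like the other gene lists here, were chosen with earlier results of these data known, so their counts are descriptive. In the target lists 0 genes passed the adjusted threshold in either comparison with control (limma). At an unadjusted p under 0.05, the shares of all probe sets to read the counts against were 3.16% higher and 9.5% lower with naproxen, and 5.49% higher and 4.86% lower with NO-naproxen. Of 12 measured HNF4A targets, 0 were higher and 2 lower with naproxen at an unadjusted p under 0.05, with a median log2 fold change of -0.08. The 2 were Cyp7a1, which makes the first enzyme of bile acid synthesis, at -1.06 ± 0.25, and the liver pyruvate kinase gene Pklr, at -0.43 ± 0.17. With NO-naproxen 1 was higher and 0 lower (median 0.0002). That one was Otc, a urea cycle enzyme, at 0.48 ± 0.16, with Cyp7a1 at -0.40 ± 0.25 and Pklr at -0.33 ± 0.17. Of 12 FOXA targets, 2 were higher and 1 lower with naproxen by the same threshold. These were Tdo2, which degrades tryptophan, at 0.62 ± 0.15, the growth factor binding protein Igfbp1 at 0.80 ± 0.33 and Tat at -0.42 ± 0.19. With NO-naproxen Tdo2 was the single gene (0.50 ± 0.15), and Tat had -0.04 ± 0.19.

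Among 16 measured C/EBP targets, 1 was higher and 1 lower with naproxen and 1 higher with NO-naproxen, with medians of -0.03 and 0.02. The count lower with naproxen is under the 9.5% of all probe sets, and that higher with NO-naproxen is near the 5.49%. The count higher with naproxen is above the 3.16% of all probe sets but rests on 1 gene. The interleukin receptor antagonist Il1rn had 0.83 ± 0.29 and 0.89 ± 0.29, and Tat was the lower one. Of 11 NR5A2 targets, 1 was higher and 1 lower with naproxen and none with NO-naproxen, with medians of -0.04 and 0.06, and the lower count is near the 9.5% of all probe sets. This list holds 1 of the 9 factors, Hnf4a. The sterol transporter gene Abcg5 had 1.17 ± 0.41 and 0.55 ± 0.41, and Cyp7a1 was again the lower one. The ONECUT1 list of 9 holds 3 of the factors themselves, and its 2 genes at an unadjusted p under 0.05 with naproxen were Tdo2 and Cyp7a1. Several genes stand in more than one list, so the lists are not separate samples.

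**Figure D4:**
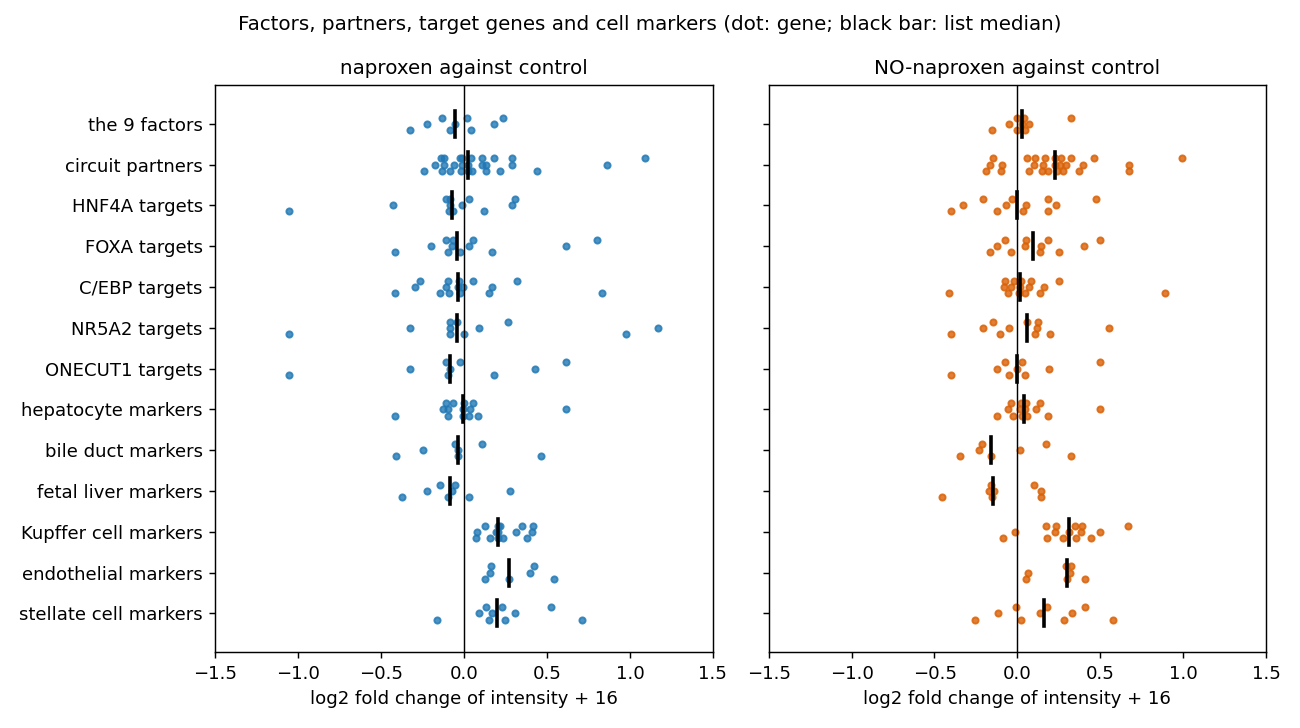
Log2 fold change of intensity + 16 (x axis) for each measured gene (dots) of the 9 factors and 12 gene lists (y axis), with the list median as a black bar, for naproxen (left) and NO-naproxen (right) against control. The 9 factors lie between -0.33 and 0.32, while single partner and target genes lie as far out as -1.06 and 1.17.

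Markers of Kupffer, endothelial and stellate cells were mostly above 0 in both comparisons with control, and those of the bile duct were not. The median over all probe sets was -0.03 with naproxen and 0.0004 with NO-naproxen. Without the dimmest 30% of probe sets it was 0.03 and 0.07. All 15 measured Kupffer cell markers had log2 fold changes above 0 with naproxen (median 0.21) and 13 of 15 with NO-naproxen (median 0.31). Their summed intensity was 6220.4 to 9127 on control arrays, 6940.3 to 9984 with naproxen and 7235 to 11488 with NO-naproxen. Of 7 endothelial markers 7 were above 0 with each drug (medians 0.27 and 0.30), with sums of 2375 to 3459, 3322 to 4071 and 3093 to 4326 in the 3 groups. Of 10 stellate cell markers 9 and 7 were above 0 (medians 0.20 and 0.16), with sums of 2997 to 4385, 3636 to 4617 and 3626 to 4837. Hepatocyte markers had medians of -0.007 and 0.04, with 6 and 10 of 14 above 0 and sums of 109576 to 123432, 108447 to 121029 and 113035 to 129848. Markers of the bile duct had 2 and 3 of 7 above 0 (medians -0.04 and -0.16). Only 3 of these 7 measured above the olfactory bound, as did 8 of 10 stellate, 15 of 15 Kupffer cell and 7 of 7 endothelial markers. The bile duct values are thus mostly of probe sets near background. Of 8 fetal liver markers 2 and 3 were above 0 (medians -0.09 and -0.15). No marker list held a gene past the adjusted threshold. At an unadjusted p under 0.05, 3 endothelial, 2 stellate and 1 Kupffer cell markers were higher with naproxen, against 3.16% of all probe sets. So were 1 bile duct marker, Epcam (0.46 ± 0.17, under the olfactory bound), and 1 hepatocyte marker, Tdo2. The hepatocyte marker Tat was lower, against 9.5% of all probe sets. With NO-naproxen 3 Kupffer cell, 1 stellate, 1 hepatocyte (Tdo2), 0 endothelial and 0 bile duct markers were higher, against 5.49%. The fetal liver marker Igf2, under the olfactory bound, was lower, against 4.86%. The part of cell composition in the values of Hnf4a and the other factors was not tested.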

How the data were processed

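The files hold deposited intensity values on a linear scale for 19418 probe sets on each of 12 arrays. The submitters' processing notes name Expression Console 1.1.1 and rn4 as the authors' tool and build. How probe sets were summarised and normalized was not given in the sources used here. Between 5.87% and 11.1% of an array's values were under 16. This constant was added before log2, so fold changes of dim probe sets are understated. One limma model (version 3.58.1 in R 4.3.3, moderated by eBayes, 2-sided) covered the 12 arrays with diet as the factor, and Benjamini-Hochberg adjustment ran over all probe sets. Groups and replicate numbers came from the sample titles, which call the samples biological replicates. The model was tested on simulated data of 19418 probe sets. In the simulated naproxen comparison, 52.2% of the 67 altered by 1 log2 unit were called, as were 98.5% of the 66 altered by 2, with 13 false calls. The simulated noise was independent between probe sets and had no array-wide part, whereas the spread of the real arrays differed. These shares therefore check the model and may overstate what the real arrays can call. On the real arrays the smallest adjusted p with naproxen was 0.245 (limma).

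The 9 members and the gene lists were chosen with earlier results of these data known. Genes named are the members, up to 4 genes of smallest p in each list, and for each member the 2 genes of highest correlation. Permutation tests of correlations were 2-sided and drew 100000 resamples. Symbols came from the platform annotation. The RefSeq promoters are of build GRCr8, not that of the arrays, so no probe set coordinates are given. Alternatives were: constants of 1 and 64, quantile normalization, median centring, dropping the dimmest 30% of probe sets, fitting only the groups compared, array spread as a covariate, omitting the 2 arrays of narrowest spread, a trended and robust variance model, averaging a gene's probe sets, the replicate number as a block, the submitters' criterion, and omitting each array in turn. Figures used matplotlib 3.10.9.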

Additional observations from a re-analysis of the deposited data

Results flagged for a closer look

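Onecut1 in control replicate 1 lay far below the other controls, at 648 intensity units against 1273 to 1411. Its gap to the nearest control was 0.867 of the range of the 4 log2 values, above Dixon's 95% critical value for 4 samples. Of 27 groups examined this was the 1 above it, and chance gives about 1 in 20. Without this array the log2 fold changes of Onecut1 were -0.31 with naproxen and -0.21 with NO-naproxen.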

How the results depend on the processing

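The count of members past the adjusted threshold was 0 in all 3 comparisons under each alternative run. Over all probe sets the count with naproxen was 3 without control replicate 1 and 2 without control replicate 2, and with NO-naproxen it was 4 without control replicate 2, where the full set of arrays gave 0. Between arrays of the same replicate number, deviations from the group means correlated above 0.1 in 4 of 12 pairs (range -0.38 to 0.48). For NO-naproxen and control, replicates 1 to 4 gave 0.04, 0.48, 0.46 and 0.09. Arrays of different number were not compared, so these values do not decide whether the samples were paired. With the replicate block 0 members passed, and Hnf4a with naproxen was -0.33 (limma adjusted p = 0.405). At an unadjusted p under 0.05, 9 values for 3 results passed: Hnf4a with naproxen, Nr5a2 with NO-naproxen and Hnf4a between the drugs (limma adjusted p from 0.202 to 0.995). Of 621 member log2 fold changes under alternatives, 252 could not move, since the alternative changes only the error, the adjustment or arrays not compared. Of the other 369, 310 kept their sign and 59 did not. Median centring shifts all probe sets alike, so its turns of sign say nothing of a gene relative to others. Values that turned sign with naproxen were Foxa1 0.029 and Onecut1 0.058 (median centring), Prox1 -0.049 (quantile), Prox1 -0.18 (spread covariate), and Prox1 -0.13 and Onecut1 0.16 (without the 2 narrowest arrays). With NO-naproxen they were Hnf4a 0.016, Foxa2 0.068 and Prox1 0.064 (median centring), Foxa1 -0.16, Cebpa -0.095, Cebpb -0.11 and Onecut1 -0.13 (quantile), Foxa2 0.0014 (constant 1), Foxa1 -0.18, Foxa2 0.0021, Cebpb -0.076 and Onecut1 -0.052 (spread covariate), and Foxa1 -0.069, Foxa2 0.41 and Cebpb -0.18 (without the 2 narrowest arrays). Leaving out 1 array in turn gave, with naproxen, Foxa1 -0.20 to 0.00084, Foxa2 -0.12 to 0.34, Foxa3 -0.064 to 0.11, Onecut1 -0.31 to 0.18, Prox1 -0.041 to 0.12, Hnf4a -0.38 to -0.23, and Cebpa -0.22 to -0.043. With NO-naproxen it gave Hnf4a -0.13 to 0.058, Foxa1 -0.071 to 0.16, Foxa2 -0.30 to 0.16, Cebpa -0.040 to 0.14, Cebpb -0.11 to 0.26, Onecut1 -0.21 to 0.16, Prox1 -0.12 to 0.12 and Nr5a2 0.24 to 0.42. Between the drugs it gave Onecut1 -0.14 to 0.31 and Prox1 -0.16 to 0.077. The cause of these turns was not tested.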
